A study of Mus musculus with 2 samples.

Results

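Classical monocytes of the mouse lung were taken from the single-cell RNA sequencing of neonatal lungs reared in room air or in hyperoxia. A cell was chosen by its own counts of unique molecular identifiers (UMIs, each marking 1 captured mRNA molecule). It had to hold at least 500 genes, at most 20% mitochondrial UMIs, at least 1 UMI each of *Tyrobp* and *Csf1r*, and at least 3 UMIs of *Ly6c2*, *F13a1* and *Ccr2* together. It also had to hold fewer than 3 UMIs of the nonclassical monocyte genes *Treml4*, *Adgre4*, *Ace* and *Fcgr4*, fewer than 6 of *C1qa*, *C1qb* and *C1qc*, fewer than 4 of *Plet1*, *Atp6v0d2*, *Marco* and *Ear2*, fewer than 2 of *Flt3*, *Xcr1*, *Clec9a* and *Cd209a*, and none of *Cd3e*, *Cd79a*, *Cdh5* or *Epcam*. This rule found 145 of the 15520 cells that passed the limits on genes and mitochondrial UMIs, 47 of 3809 in room air and 98 of 11711 in hyperoxia.

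Classical monocytes leave the bone marrow through the chemokine receptor CCR2, circulate with high surface Ly6C, and enter tissues that are injured or growing. In tissue they can become macrophages or antigen-presenting cells, and in blood they can convert into nonclassical, patrolling monocytes. In the lung they are an early source of cytokines and chemokines after injury, and they respond to interferons by raising the machinery that presents peptides on MHC class I.

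The samples were 1 library per condition, each from the lungs of 8 pooled wild-type mice at 2 weeks of age, of the strain given as C57BL/6 in the labels and as C57BL/6J in the methods. The room air pups breathed 21% O2 and the hyperoxia pups 80% O2 from the day of birth to postnatal day 14, a mouse model of bronchopulmonary dysplasia. Neither condition carried another treatment or allele, and nothing was sorted. With 1 pooled library per condition there was no replicate, so no difference below was tested. The 95% intervals are exact for levels, ratios and shares, those of a difference of shares combine the intervals of both, and all cover counting error only, not the spread between mice.

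The deposited tables held 4234 barcodes in room air and 13223 in hyperoxia. Of these barcodes 17 occurred in both libraries, and none of the 17 was a classical monocyte. The members summed to 482369 UMIs in room air, with a median of 10991 per cell and a range of 1149 to 21288. They summed to 886353 UMIs in hyperoxia, with a median of 7889 per cell and a range of 780 to 25800. *Xist* (80.9 and 149 UMIs per 1000000 UMIs, CPM) and the Y-linked *Ddx3y* (58.0 and 109 CPM) were both found among the members of both libraries, so both sexes were in both pools.

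The genes that chose the cells are given as a description. *Ly6c2* had at least 1 UMI in 47 of 47 room air members and in 83 of 98 hyperoxia members. *Ccr2* was found in 47 of 47 and 93 of 98, and *F13a1* in 34 of 47 and 70 of 98. For the sum of these 3 genes the median was 19 UMIs per room air member (range 3 to 124) and 14 per hyperoxia member (range 3 to 100). *Ly6c2* has a near-identical neighbour, *Ly6c1*, so its counts are uncertain where reads fit both copies. At the lower limit of this sum, 1 and 6 cells held exactly 3 UMIs and were in, while 3 and 7 cells held 2 and were out. The limit on the nonclassical genes was less sharp, with 14 and 19 members at 2 UMIs and 14 and 11 cells outside at 3. The limit on C1q genes fell into an empty range, since no cell of either library held 5 or 6 of those UMIs with every other condition met. The limit on *Csf1r* lay in a crowded one. It was met with exactly 1 UMI by 8 and 26 members, and 35 and 104 further cells met every condition but held no *Csf1r* UMI.

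Genes of classical monocytes that the rule did not use summed high in the members, and several of them were found in most of the cells. The 18 such genes summed to 43626 CPM in the room air members and 33220 CPM in the hyperoxia members. The sums were 29123 and 27651 CPM in the nonclassical monocytes, 20070 and 19407 CPM in neutrophils, and 19473.5 and 17985 CPM in alveolar macrophages. They were 4619 and 10034 CPM in macrophages with at least 6 C1q UMIs, and 2131 and 2160.4 CPM in B cells. B cells served as a gauge of free RNA in the droplets, although they make some of these genes themselves, such as *Plac8*. *Lyz2*, which encodes lysozyme and was the largest part of the sums in the members, was found in 47 of 47 and 97 of 98 members. *Plac8* was found in 46 and 93, and *S100a6* in 46 and 98. *Vcan* (13 and 63) and *Chil3* (14 and 38) were found in fewer. The 11 genes of nonclassical monocytes were lower in the members (1294 and 1424 CPM) than in the nonclassical cells (4253 and 4746 CPM). The 22 macrophage maturation genes summed to 5543 and 6751 CPM in the members, beside 46215 and 50560.1 CPM in the C1q macrophages. The nonclassical list holds *Treml4*, *Adgre4*, *Ace* and *Fcgr4*, whose sum divided members from nonclassical cells. C1q UMIs likewise divided members from C1q macrophages. The direction of both comparisons was thus partly set by the choice of cells.

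**Figure D1:**
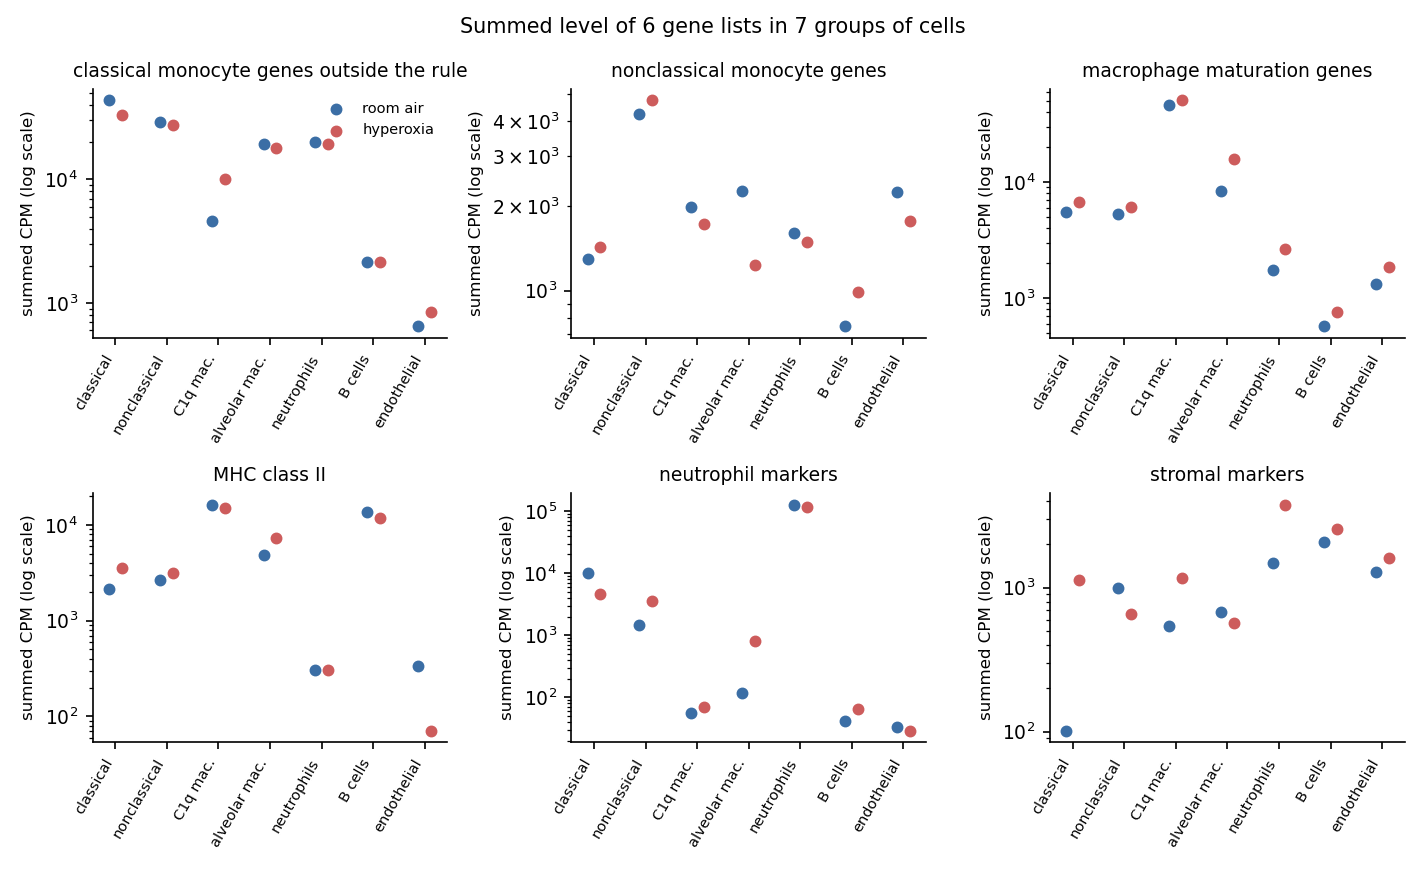
Summed level of 6 gene lists (vertical axis, CPM on a log scale) in 7 groups of cells (horizontal axis) in room air (blue) and hyperoxia (red), 1 library per point. Classical monocytes stand highest for the classical monocyte genes outside the rule, at 43626 and 33220 CPM, and their neutrophil and stromal markers come from a few cells.

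Some members carried genes of other cell types, and these cells are given first. In room air 1 of 47 cells held 99.4% of the *S100a9* UMIs, 2070 of 2082, and the same cell held all 105 UMIs of *Mcpt8* and *Cpa3*, genes of basophils and mast cells. In hyperoxia 3 cells held 98.6% of the *S100a9* UMIs, 1 held 239 of the 240 UMIs of *Mcpt8* and *Cpa3*, 3 held 89.9% of the UMIs of the collagen genes *Col1a1*, *Col1a2* and *Col3a1*, 3 held 5 or more UMIs of *Cd3d*, *Cd3g*, *Nkg7* and *Gzma*, and 1 held 9 UMIs of *Siglech*. In the same library 7 cells held 8 to 210 UMIs of the MHC class II genes *H2-Aa*, *H2-Ab1* and *H2-Eb1*, while no other member of that library held more than 1. Together these were 1 room air cell and 17 hyperoxia cells (17.3% of 98), with 1 hyperoxia cell counted under more than one kind. A search for doublets left 47 of 47 and 89 of 98 members. For most named genes that leaving these cells out moved across 2-fold, the value in the 46 and 81 cells that remain is also given, with limits chosen after seeing the data.

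The 5 neutrophil markers summed to 9926 and 4661 CPM in the members, against 127464 and 118047 CPM in neutrophils, and the 2 basophil and mast cell markers to 218 and 271 CPM. Most of these UMIs were in the cells just described, and without them *S100a8*, which monocytes also express, was at 544 and 480 CPM (log2 ratio -0.18) in place of a ratio of -1.13. Markers of the remaining cell types were low, apart from stromal and epithelial ones. Some of them were limited by the rule itself, namely *Plet1*, *Atp6v0d2*, *Marco*, *Ear2*, *Flt3*, *Xcr1*, *Clec9a*, *Cd209a*, *Cd3e*, *Cd79a*, *Cdh5* and *Epcam*. Their low levels were thus partly set by the choice of cells. The 5 endothelial markers summed to 29.0 and 74.5 CPM in the members, against 9921 and 9826 CPM in endothelial cells. The 8 alveolar macrophage markers summed to 47.7 and 54.2 CPM with 4 of 8 at 0 in each library, and the 7 dendritic cell markers to 10.4 and 18.1 CPM with 4 and 3 of 7 at 0. The 3 B cell markers summed to 35.2 and 14.7 CPM, the 5 T and NK cell markers to 6.22 and 31.6 CPM, and the 4 erythroid markers to 20.7 and 18.1 CPM. The 5 epithelial markers, mostly surfactant mRNA, reached 601 and 842 CPM, which was below their level in B cells (1021 and 2660 CPM). The 5 stromal markers went from 102 CPM in room air to 1128 CPM in hyperoxia, also below the B cells (2067 and 2568 CPM). In hyperoxia 3 cells held 89.9% of the UMIs of the 3 collagen genes. Without the cells carrying other genes *Col1a1* was at 15.2 and 16.5 CPM and *Col3a1* at 30.4 and 40.6 CPM. *Mfap4* was then at 36.9 and 97.8 CPM.

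Classical monocytes made up a smaller part of all lung cells in hyperoxia and a larger part of the monocytes. They were 1.23% of the cells kept in room air (95% interval 0.908 to 1.64) and 0.837% in hyperoxia (0.680 to 1.02), a difference of -0.397 percentage points (-0.830 to -0.0238). Nonclassical monocytes were 148 cells in room air (3.89%) and 102 cells in hyperoxia (0.871%), a difference of -3.01 points (-3.70 to -2.39). Of all classical and nonclassical monocytes, 24.1% were classical in room air (47 of 195, 18.3 to 30.7) and 49.0% in hyperoxia (98 of 200, 41.9 to 56.1). Among cells with *Csf1r* and *Tyrobp* they were 10.8% (47 of 434) and 15.9% (98 of 616), a difference of 5.08 points (0.744 to 9.26). The cells of this total also met the rule's limits on *Flt3*, *Xcr1*, *Clec9a*, *Cd209a*, *Cd3e*, *Cd79a*, *Cdh5* and *Epcam*. Macrophages with C1q UMIs were 1.13% and 1.01% of all cells, and neutrophils 1.84% and 2.71%.

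Shares of one total are tied to each other, and alveolar macrophages went from 5.51% to 2.83% of all cells in the same libraries. When each cell was first thinned to 2000 UMIs and the rule applied again, 43 of 3434 and 53 of 10417 cells met it, and the difference was -0.743 points. Without the cells that carried genes of other cell types it was -0.516 points. The share of all cells was lower in hyperoxia under each of the 8 alternatives tried for it. The shares among monocytes and among cells with *Csf1r* and *Tyrobp* were not recomputed under these alternatives.

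**Figure D2:**
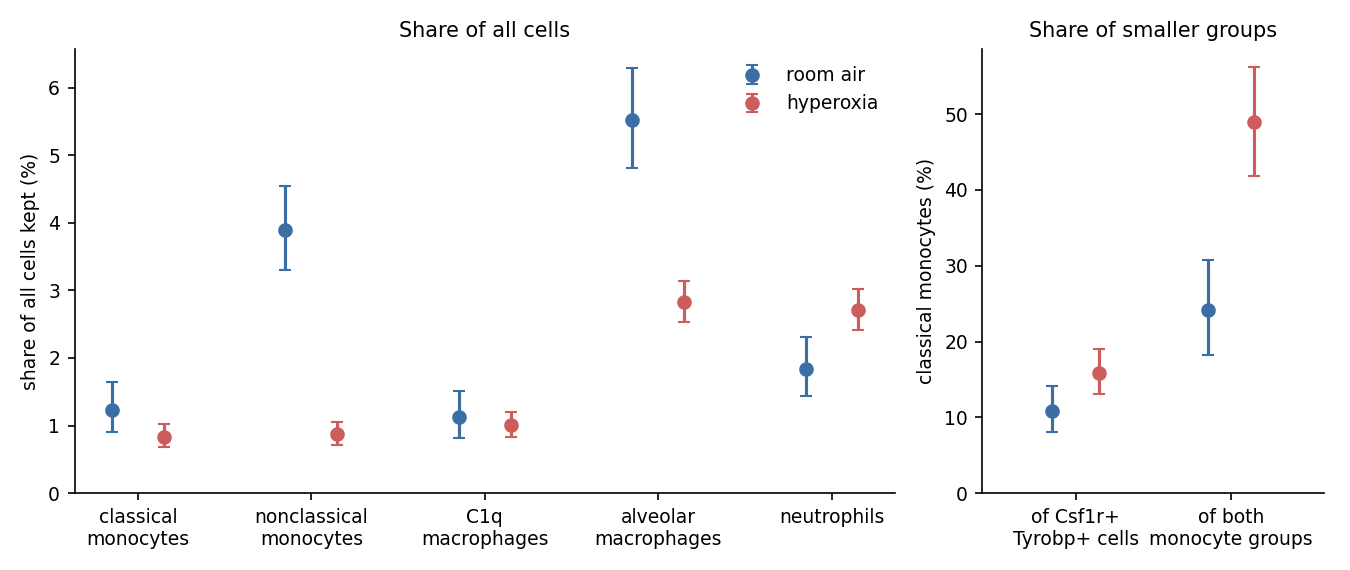
Left, share of all cells kept (%) for classical monocytes and 4 other groups in room air (blue) and hyperoxia (red). Right, classical monocytes as a share (%) of both monocyte groups and of *Csf1r*+ *Tyrobp*+ cells. The latter met the rule's limits on dendritic, lymphocyte, endothelial and epithelial genes. Bars are exact 95% binomial intervals, 1 library per point. The classical share of the monocytes goes from 24.1% to 49.0%.

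For gene levels, UMIs were summed over the members of each library and divided by the total, which gave CPM. Genes with a mean of at least 50 CPM over both libraries were compared, 2865 in all, and a gene was counted when hyperoxia and room air differed at least 2-fold. By this rule 96 genes were higher in hyperoxia (3.35% of those compared) and 45 were lower (1.57%), and the median log2 ratio of all genes compared was 0.04. In the 46 and 81 cells without genes of other cell types the counts were 65 (2.28% of 2853) and 24 (0.841%).

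Most genes that mark classical monocytes differed little between the libraries. Of the 18 genes outside the rule, 2 were at least 2-fold higher in hyperoxia (beside 3.35% of all genes) and none lower. Their median log2 ratio was -0.09, which was 0.06 without the cells carrying other genes and 0.25 after thinning to 2000 UMIs. *Vcan*, which encodes the matrix proteoglycan versican, had the largest difference, with 118 CPM in the room air members and 504 CPM in those of hyperoxia (log2 ratio 2.09, 95% interval 1.69 to 2.52). It lies on chromosome 13 from 89655312 to 89742509 in GRCm38. It was found in 13 of 47 and 63 of 98 members. After thinning to 2000 UMIs, 15.6% of the room air and 42.3% of the hyperoxia members held it, beside 1.89% and 1.72% of B cells. No single cell held more than 6.49% of its hyperoxia UMIs, and without the cells carrying other genes the log2 ratio was 2.14. Members had a median of 10991 and 7889 UMIs and B cells of 4621 and 2957, so shares of cells are compared after thinning, and counts of members without thinning are at their own depth. Shares of members after thinning are of the 45 and 97 members with at least 2000 UMIs. Medians and ratios after thinning are of the 43 and 53 cells that met the rule on the thinned counts. They were drawn from all kept cells with at least 2000 UMIs. Cells outside the members can be among them, so these values are not those of the members at equal depth.

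*Chil3*, a chitinase-like protein of activated myeloid cells, was at 108 and 287 CPM (log2 ratio 1.41, 95% interval 0.98 to 1.87). In room air 1 cell held 65.4% of its UMIs, and without the cells carrying other genes the ratio was 2.55. The chemokine receptor gene *Ccr1* was at 139 and 267 CPM (log2 ratio 0.94, 95% interval 0.55 to 1.36). *Lyz2*, the most abundant of these genes, was lower in hyperoxia, at 25947 and 16531 CPM (log2 ratio -0.65, 95% interval -0.68 to -0.62), and *Ifitm6* was at 711 and 405 CPM (log2 ratio -0.81, 95% interval -1.03 to -0.59). The adhesion and matrix genes *Fn1* and *Thbs1* were 0.37 and 0.41 higher on the log2 scale. *Ly6c2* itself, which chose the cells, was at 1694 and 1107 CPM.

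Receptors and integrins that guide monocytes into tissue kept their levels within 2-fold. All 13 trafficking genes compared, *Ccr2* of the rule among them, lay between -0.94 and 0.94 on the log2 scale, with a median of -0.07, or 0.28 after thinning. *Itgb7*, the beta 7 integrin chain, was lower in hyperoxia, at 251 and 131 CPM (log2 ratio -0.94, 95% interval -1.32 to -0.56). *Selplg*, which encodes the P-selectin ligand, was at 257 and 160.2 CPM (log2 ratio -0.68, 95% interval -1.04 to -0.32). The fractalkine receptor *Cx3cr1* was at 72.6 and 88.0 CPM with an interval that includes 0 (-0.31 to 0.90).

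The transcription factors and growth factor receptors that define the lineage were close in the libraries too. None of the 14 compared, which include *Csf1r* of the rule, passed 2-fold, and their median was 0.14, or -0.03 after thinning. *Spi1*, the myeloid master regulator PU.1, was at 458 and 389 CPM, and *Cebpb* at 2073 and 2323 CPM. *Klf2*, a factor of quiescent circulating cells, had the largest difference and was lower in hyperoxia, at 402 and 247 CPM (log2 ratio -0.70, 95% interval -0.99 to -0.42). *Csf2rb*, *Il17ra* and *Runx1* were 0.51, 0.52 and 0.49 higher on the log2 scale. The 4 nonclassical genes compared had a median of 0.03, and *Nr4a1*, the factor that nonclassical monocytes need, was at 630.2 and 829 CPM (log2 ratio 0.40, 95% interval 0.20 to 0.59).

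Inflammatory cytokines and chemokines were higher in the hyperoxia monocytes. Of 14 genes compared 6 were at least 2-fold higher (beside 3.35% of all genes) and none at least 2-fold lower. Above 0 were 12 of 14 (beside 1547 of all 2865), and the median log2 ratio was 0.81. *Cxcl2*, a neutrophil chemoattractant on chromosome 5 (90903871 to 90905938), was at 141 and 808 CPM (log2 ratio 2.52, 95% interval 2.16 to 2.90). It was found in 7 of 47 and 40 of 98 members, and after thinning in 8.89% and 33.0%, beside 0.758% and 2.69% of B cells. *Ccl2*, the ligand of CCR2, was at 66.3 and 307 CPM (log2 ratio 2.21, 95% interval 1.68 to 2.79), in 9 and 42 members, and after thinning in 6.67% and 22.7%, beside 0.379% and 0.108% of B cells. *Ptgs2*, the inducible cyclooxygenase, was at 18.7 and 131 CPM (log2 ratio 2.81, 95% interval 1.84 to 3.98), in 4 and 27 members. Each of these 3 genes was thus found in a larger share of the hyperoxia cells, although they were the shallower ones.

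*Il1b* was the most abundant of the 6, at 539 and 1214 CPM (log2 ratio 1.17, 95% interval 0.97 to 1.37), and was found in 28 of 47 and 76 of 98 members, and after thinning in 40% and 62.9%, beside 1.14% and 2.58% of B cells. *Ccl4* was at 155 and 401 CPM (log2 ratio 1.37, 95% interval 1.002 to 1.74). *Tnf* had the largest ratio, 10.4 and 92.5 CPM (log2 ratio 3.16), but 1 hyperoxia cell held 57.3% of its UMIs. Without the cells carrying other genes the ratios were 2.39 for *Cxcl2*, 2.22 for *Ccl2*, 2.55 for *Ptgs2*, 0.999 for *Il1b*, 1.06 for *Ccl4* and 2.15 for *Tnf*. The median of the list was then 0.995, with 5 of 13 genes past 2-fold (beside 2.28% of all genes). The NF-kB feedback inhibitors divided, with *Nfkbia* at 413 and 684 CPM (log2 ratio 0.73, 95% interval 0.50 to 0.97) and *Tnfaip3* at 153 and 148 CPM (log2 ratio -0.05, 95% interval -0.48 to 0.38). *Icam1* was the gene with the lowest ratio, -0.43, with an interval that includes 0.

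Receptors that sense microbes and immune complexes had a median of 0.51 over 11 genes compared, with 1 past 2-fold (beside 3.35% of all genes). But the median was 0.06 in cells with *Ly6c2*, 0.30 without the cells carrying other genes and -0.04 after thinning. *Cd14*, the co-receptor for lipopolysaccharide, was at 829 and 1647 CPM (log2 ratio 0.99, 95% interval 0.83 to 1.15), or 1.06 without the cells carrying other genes, and no cell of either library held more than 10.8% of its UMIs. *Clec4n*, which encodes the C-type lectin Dectin-2, was at 27.0 and 126 CPM (log2 ratio 2.23, 95% interval 1.40 to 3.18), in 6 and 24 members, and its ratio was 1.42 without the cells carrying other genes. *Tlr2* was at 224 and 318 CPM (log2 ratio 0.51, 95% interval 0.18 to 0.84). The shared Fc receptor chain *Fcer1g* was lower, at 2904 and 2321 CPM (log2 ratio -0.32, 95% interval -0.42 to -0.22).

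**Figure D3:**
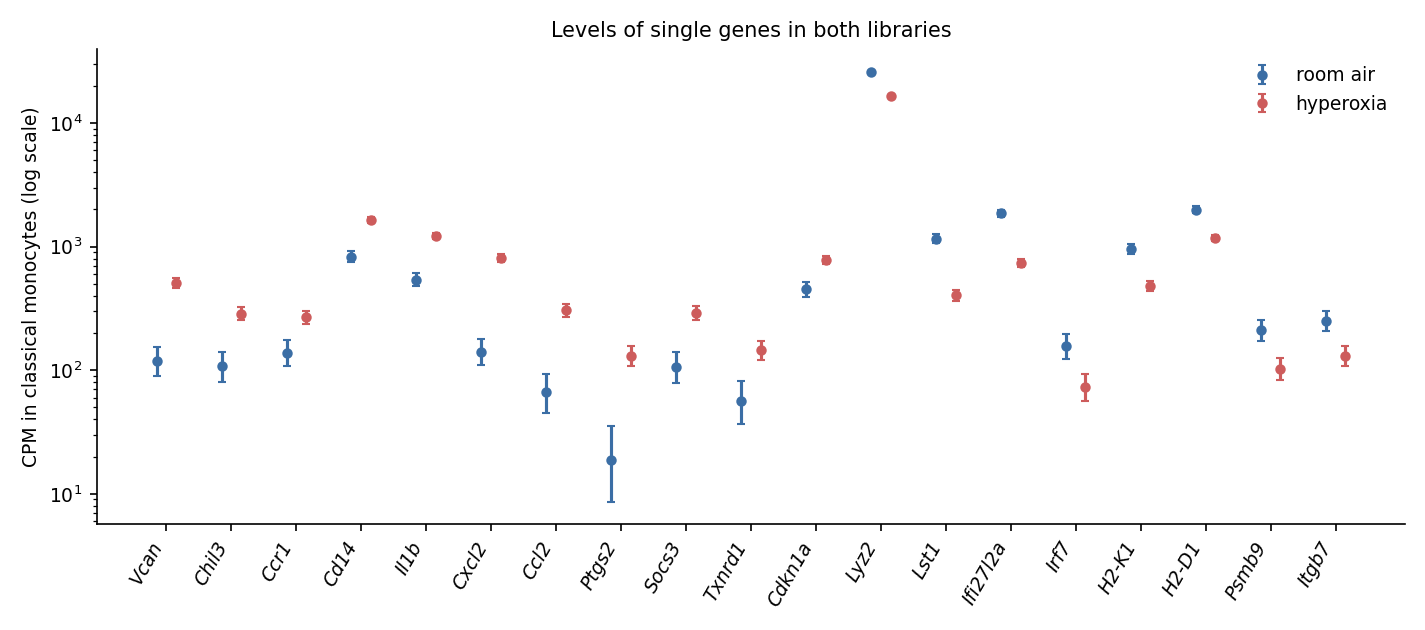
Level of 19 single genes (vertical axis, CPM on a log scale) summed over 47 classical monocytes in room air (blue) and 98 in hyperoxia (red). Bars are exact 95% Poisson intervals of the count. *Vcan*, *Cxcl2*, *Ccl2* and *Ptgs2* are higher in hyperoxia and *Lst1*, *Ifi27l2a* and *Irf7* lower.

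Genes of MHC class I presentation were lower in the hyperoxia monocytes throughout the pathway. All 10 genes compared had a log2 ratio below 0, beside 1318 of all 2865, with a median of -0.65, and 2 were at least 2-fold lower (beside 1.57% of all genes). The heavy chain *H2-K1* was at 962 CPM in the room air members and 483 CPM in those of hyperoxia (log2 ratio -0.99, 95% interval -1.19 to -0.80), and *H2-D1* at 1988 and 1178 CPM (log2 ratio -0.76, 95% interval -0.88 to -0.63). *B2m*, the invariant light chain, was at 2496 and 1721 CPM (log2 ratio -0.54, 95% interval -0.65 to -0.43). *Tap1*, 1 chain of the peptide transporter, and *Psmb9*, a subunit of the immunoproteasome, start side by side on opposite strands of chromosome 17. *Tap1* was at 97.4 and 47.4 CPM (log2 ratio -1.04, 95% interval -1.68 to -0.41) and *Psmb9* at 211 and 103 CPM (log2 ratio -1.04, 95% interval -1.47 to -0.62). Their ratios were -0.95 and -0.83 without the cells carrying other genes. The class I genes are alike in sequence, so reads may be divided unevenly among *H2-K1*, *H2-D1*, *H2-Q4* and *H2-T23*.

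The same direction was seen in the interferon-stimulated genes. Of 36 genes on the list 12 reached 50 CPM on average, and 11 of these 12 were below 0 (beside 1318 of all 2865). At least 2-fold lower were 3 (beside 1.57% of all genes), and the median was -0.29. In room air 1 member held 375 of the 2726 UMIs of the list. *Ifi27l2a*, an interferon-induced membrane protein gene on chromosome 12 (103442167 to 103443680), was at 1862 and 737 CPM (log2 ratio -1.34, 95% interval -1.49 to -1.19). It was found in 46 of 47 and 79 of 98 members, and after thinning in 88.9% and 61.9%, beside 36.7% and 22.1% of B cells. *Irf7*, the factor that amplifies type I interferon, was at 158 and 73.3 CPM (log2 ratio -1.10, 95% interval -1.60 to -0.61), although 1 room air cell held 35.5% of its UMIs, and its ratio was -0.95 without the cells carrying other genes.

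Below the 50 CPM mean, *Ifi47* was at 76.7 and 15.8 CPM (log2 ratio -2.28, 95% interval -3.28 to -1.36), *Gbp2* at 68.4 and 24.8 CPM (log2 ratio -1.46, 95% interval -2.31 to -0.64) and *Isg15* at 58.0 and 24.8 CPM (log2 ratio -1.23, 95% interval -2.10 to -0.37). Without each gene's top cell in each library these log2 ratios were -2.39, -2.17 and -0.64. *Cxcl10* was at 70.5 and 20.3 CPM, and all of its room air UMIs came from 1 cell. In the 46 and 81 cells without genes of other cell types, 4 of 16 interferon-stimulated genes were at least 2-fold lower (beside 0.841% of all genes) with a median of -0.19, and 9 of 10 class I genes were below 0 with a median of -0.59 and none past 2-fold.

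The promoters of genes from the interferon and the cytokine lists were read from RefSeq (build GRCm38.p6) to show what letters stand before these genes. In the 250 bases before the RefSeq start of each gene, the core of the interferon-stimulated response element, GAAANNGAA on either strand, was found in 16 of the 26 interferon-stimulated genes with a promoter in the table (61.5%), in 2 of 11 class I genes (18.2%) and in 7.16% of all 27025 genes. The letters GGNNNTTCC on either strand, a loose form of the NF-kB site, were found in 10 of 16 cytokine and NF-kB genes (62.5%), in 9 of 26 interferon-stimulated genes (34.6%), in 5 of 11 class I genes (45.5%), in 4 of 13 classical monocyte genes (30.8%) and in 15.6% of all genes. In 39 of the 27025 genes a match of one pattern shared bases with a match of the other, and in none of these lists. A match describes the sequence and does not show that a factor was bound. Of the 4 promoters below, *Isg15* and *Gbp2* were lower in hyperoxia and hold the first pattern, and *Cxcl2* and *Nfkbia* were higher and hold the second, with those matches in capitals. *Isg15* also holds 1 match of the second pattern and *Nfkbia* 1 of the first, left in lower case. They lie at chr4:156200819-156201068 on the minus strand for *Isg15*, chr3:142620413-142620662 on the plus strand for *Gbp2*, chr5:90903649-90903898 on the plus strand for *Cxcl2* and chr12:55492648-55492897 on the minus strand for *Nfkbia*, each written 5′ to 3′ along its gene.
Isg15: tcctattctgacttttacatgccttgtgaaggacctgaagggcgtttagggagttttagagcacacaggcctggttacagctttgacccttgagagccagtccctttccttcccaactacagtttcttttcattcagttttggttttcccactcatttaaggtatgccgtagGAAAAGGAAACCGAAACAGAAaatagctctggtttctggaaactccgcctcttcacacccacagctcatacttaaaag
Gbp2: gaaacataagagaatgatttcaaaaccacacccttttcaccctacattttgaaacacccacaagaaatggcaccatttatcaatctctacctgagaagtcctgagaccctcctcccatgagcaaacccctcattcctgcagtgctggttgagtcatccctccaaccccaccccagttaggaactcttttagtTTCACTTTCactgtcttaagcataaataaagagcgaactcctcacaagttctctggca
Cxcl2: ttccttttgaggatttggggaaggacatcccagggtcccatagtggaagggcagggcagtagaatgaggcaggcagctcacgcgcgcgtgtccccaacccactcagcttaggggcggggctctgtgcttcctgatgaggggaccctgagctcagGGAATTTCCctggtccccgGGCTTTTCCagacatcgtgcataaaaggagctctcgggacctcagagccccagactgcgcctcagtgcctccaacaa
Nfkbia: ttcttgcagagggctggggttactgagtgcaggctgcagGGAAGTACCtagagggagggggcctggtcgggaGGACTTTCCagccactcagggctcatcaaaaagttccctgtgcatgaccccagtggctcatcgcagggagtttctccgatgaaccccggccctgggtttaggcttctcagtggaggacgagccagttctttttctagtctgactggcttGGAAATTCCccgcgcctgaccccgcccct
The *Isg15* promoter held 3 overlapping matches that begin 66 to 78 bases before the start, and *Gbp2* held 1 that begins at 58 bases. *Cxcl2* held 3 matches that begin 77 to 96 bases before the start, and *Nfkbia* held 4 that begin 29 to 211 bases before it. Each strand was counted on its own, so GGAATTTCC in *Cxcl2* and GGAAATTCC in *Nfkbia*, which match on both strands, were counted for both.

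Immediate early genes, which are also induced while tissue is dissociated, tended to be higher in hyperoxia. Of 18 immediate early and heat shock genes 15 were above 0 (beside 1547 of all 2865), 4 were at least 2-fold higher (beside 3.35% of all genes) and the median was 0.41. Without the cells carrying other genes 2 of 18 were at least 2-fold higher (beside 2.28% of all genes). *Egr1* was at 72.6 and 284 CPM (log2 ratio 1.97, 95% interval 1.46 to 2.52), with 30.2% of its hyperoxia UMIs in 1 cell, and was 0.90 on the log2 scale without the cells carrying other genes. *Jun* was at 236 and 593 CPM (log2 ratio 1.33, 95% interval 1.03 to 1.63), or 0.89 without those cells. *Socs3*, the feedback inhibitor of cytokine signalling, was at 106 and 290.0 CPM (log2 ratio 1.46, 95% interval 1.02 to 1.92), in 15 of 47 and 66 of 98 members, and after thinning in 11.1% and 39.2%, beside 6.06% and 9.04% of B cells. *Fos* was at 1592 and 2172 CPM (log2 ratio 0.45, 95% interval 0.33 to 0.57), and the heat shock gene *Hspa1a* was lower, at 1758 and 1243 CPM (log2 ratio -0.50, 95% interval -0.63 to -0.37). B cells moved the same way for *Egr1* and *Jun*, which were at 234 and 341 CPM and at 234 and 489 CPM in B cells. For *Egr1* the level in B cells exceeded that of the members in both libraries. The part of free RNA in these ratios was not tested.

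Antioxidant genes as a list were level, with a median of 0.10 over 14 genes, and 1 past 2-fold (beside 3.35% of all genes). With the cells carrying other genes left out, 3 were past 2-fold (beside 2.28% of all genes). *Txnrd1*, thioredoxin reductase and a target of NRF2, was at 56.0 and 146 CPM (log2 ratio 1.38, 95% interval 0.77 to 2.03), in 16 and 56 members. The cystine transporter *Slc7a11* was at 153 and 269.6 CPM (log2 ratio 0.81, 95% interval 0.43 to 1.21) and *Sod1* at 114 and 209 CPM (log2 ratio 0.87, 95% interval 0.43 to 1.33), and without those cells the ratios were 1.19 and 1.01. *Gclc*, the catalytic subunit of glutathione synthesis, was under the 50 CPM mean at 10.4 and 51.9 CPM (log2 ratio 2.32, 95% interval 0.998 to 4.01). *Hmox1* differed less, at 207 and 281 CPM (log2 ratio 0.44, 95% interval 0.10 to 0.79), and *Prdx5* was lower, at 1866 and 1357 CPM (log2 ratio -0.46, 95% interval -0.58 to -0.33).

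Among 5 p53 targets compared, 4 were above 0 (beside 1547 of all 2865) and the median was 0.69. *Cdkn1a*, the cell cycle inhibitor p21, was at 449.9 and 774 CPM (log2 ratio 0.78, 95% interval 0.56 to 1.01), in 38 of 47 and 92 of 98 members, and after thinning in 60% and 68.0%, beside 4.17% and 12.6% of B cells. *Mdm2*, which marks p53 for degradation and was the 1 gene past 2-fold, was at 51.8 and 108 CPM (log2 ratio 1.06, 95% interval 0.42 to 1.76), *Btg2* at 489 and 789.8 CPM (log2 ratio 0.69, 95% interval 0.48 to 0.91), and *Bax* at 172 and 162 CPM (log2 ratio -0.08, 95% interval -0.48 to 0.32). Without the cells carrying other genes *Mdm2* was at a log2 ratio of 0.96 and none of the 5 was past 2-fold. Genes of glycolysis and the HIF response had a median of 0.03 over 9 genes with none past 2-fold. *Hif1a* was at 60.1 and 104 CPM (log2 ratio 0.79, 95% interval 0.17 to 1.44) and *Eno1* at 417 and 282 CPM (log2 ratio -0.56, 95% interval -0.84 to -0.29). The 70 nuclear genes of oxidative phosphorylation had a median of -0.24, with 53 below 0 (beside 1318 of all 2865). The 84 ribosomal protein genes had a median of 0.01.

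The repair and coagulation genes were mostly above 0. All 7 repair and matrix genes compared were higher in hyperoxia (beside 1547 of all 2865), with a median of 0.41, 2 past 2-fold (beside 3.35% of all genes). These were *Vcan* and *Timp2*, an inhibitor of matrix metalloproteinases, at 35.2 and 100.4 CPM (log2 ratio 1.51, 95% interval 0.75 to 2.35), which were at a log2 ratio of 0.75 without the cells carrying other genes. *Tgfbi* was at 419 and 571 CPM (log2 ratio 0.45, 95% interval 0.21 to 0.69). *Arg1* was listed at 0 in room air, and in hyperoxia 1 cell held 94.1% of its 51 UMIs. *Igf1* was likewise at 0 in room air and at 68.8 CPM in hyperoxia, below its B cell level of 108 CPM. Without the cells carrying other genes *Igf1* was at 6.02 CPM in hyperoxia, in 3 of 81 cells. Of 7 coagulation genes, with *F13a1* of the rule among them, 5 were above 0 (beside 1547 of all 2865). Their median was 0.40, which was -0.30 after thinning to 2000 UMIs. *F10*, coagulation factor X, was at 187 and 278 CPM (log2 ratio 0.57, 95% interval 0.22 to 0.94), and *Serpinb2*, an inhibitor of plasminogen activation, was at least 2-fold lower, at 87.1 and 42.9 CPM (log2 ratio -1.02, 95% interval -1.69 to -0.35), or -0.79 without the cells carrying other genes.

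Macrophage maturation genes had a median of 0.17 over 10 genes. *Apoe* was at 1368 and 2360.2 CPM (log2 ratio 0.79, 95% interval 0.66 to 0.92). *Cd63* was the 1 gene past 2-fold (64.3 and 149 CPM), and in room air 90.3% of its UMIs came from 1 of only 4 cells. None of the 9 maturation genes compared was past 2-fold without the cells carrying other genes. Lipid genes had a median of -0.11 over 5 genes, none past 2-fold. Cells with at least 5 UMIs of the proliferation genes *Mki67* and *Top2a* were 2 of 47 in room air (4.26%, 0.520 to 14.5) and 6 of 98 in hyperoxia (6.12%, 2.28 to 12.9), so a difference was not detectable with this number of cells.

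**Figure D4:**
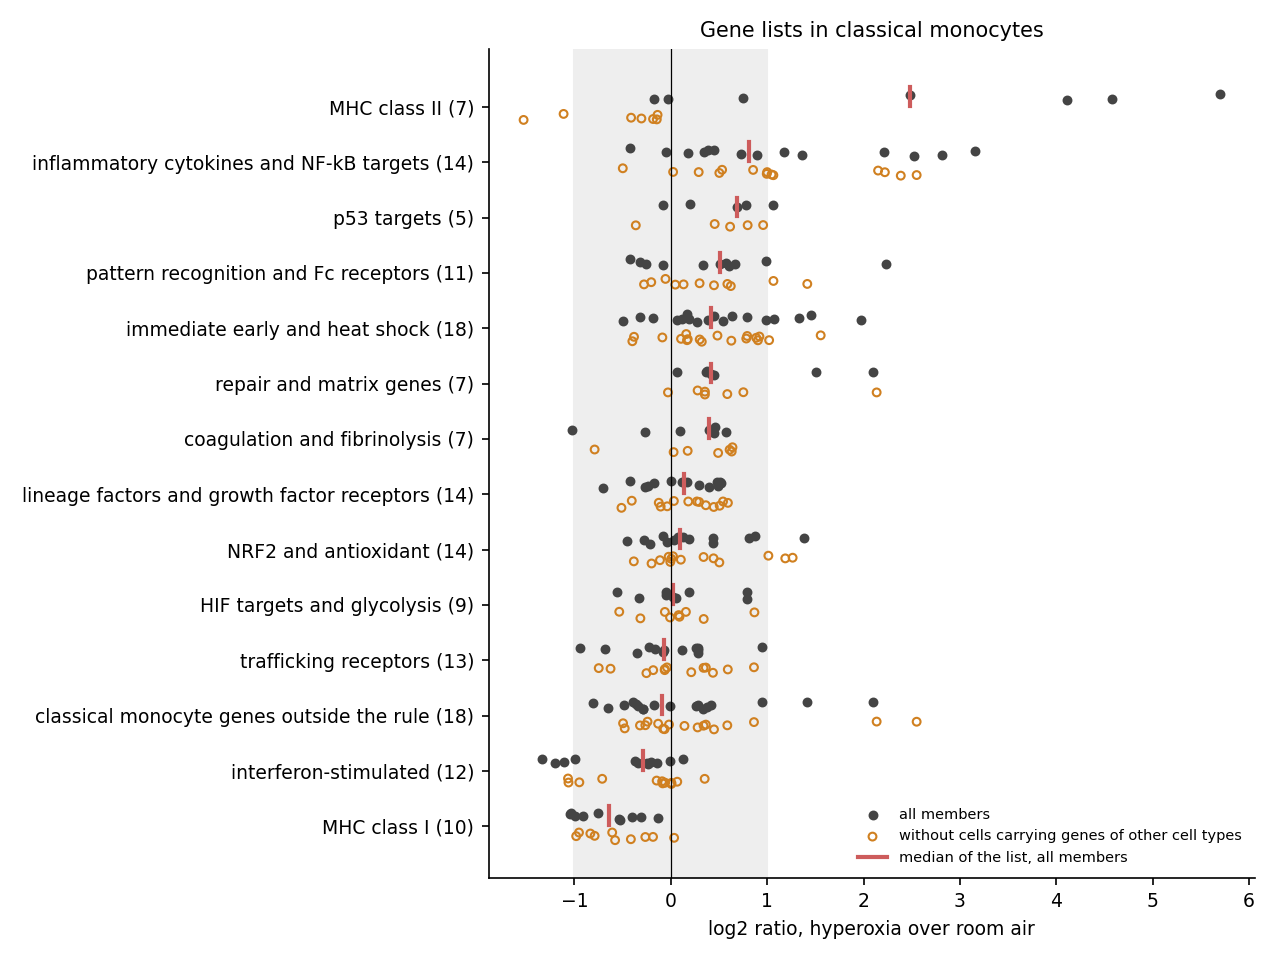
Log2 ratio of hyperoxia over room air (horizontal axis) for each compared gene of 14 lists (vertical axis, number of genes in brackets) in all classical monocytes (dark points) and, for the same genes, without the 1 room air and 17 hyperoxia cells carrying genes of other cell types (orange rings). Red bars mark list medians over all members and the shaded band marks differences under 2-fold. All 10 MHC class I genes lie below 0 in all members and 9 of 10 without those cells, and MHC class II moves from a median of 2.48 to -0.15 over the 3 genes that still reach 50 CPM.

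The largest differences by ratio were named by rule, among genes at least 3 times above their level in B cells. Of the 15 with the largest ratio, 6 rested on 7 or fewer hyperoxia cells. *Ccl24*, an eosinophil chemokine, had 1 UMI in room air and 129 in hyperoxia, with 72.9% in 1 of 4 cells. *Mmp12*, macrophage elastase, had 1 and 87 UMIs, with 59.8% in 1 of 5 cells. *AA467197*, *Gm5483*, *Stfa1* and *Retnlg* were found in 6, 4, 7 and 5 hyperoxia cells. The others of the 15 were spread over more cells and are *Vcan*, *Cxcl2*, *Ccl2*, *Ptgs2*, *Tnf*, *Clec4n* and *Socs3*, described above, and *Bcl2a1b* and *Bcl2a1d*. These last 2 are near-identical copies of the survival gene A1, so their split is uncertain. They were at 12.4 and 133 CPM in 5 and 25 cells and at 27.0 and 115 CPM in 9 and 29 cells. Without the cells carrying other genes *Bcl2a1b* was at a log2 ratio of 2.79. After thinning, with the rule applied again to all kept cells and not only to members, their log2 ratios were -0.49 and -0.11.

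Of the 15 genes with the smallest ratio, 8 were genes of neutrophils and their precursors. They were *S100a9*, *Ngp*, *Camp*, *Ltf*, *Wfdc21*, *Stfa2*, *Stfa3* and *BC100530*, and in room air 1 cell held 87.2% to 100% of the UMIs of each. Without that cell and the others carrying such genes *S100a9* was at 26.0 and 28.6 CPM, a log2 ratio of 0.14. The other 7 were spread over many cells. *Lst1*, a transmembrane protein gene of myeloid cells within the MHC region of chromosome 17 (35185095 to 35188439), was at 1155 and 405 CPM (log2 ratio -1.51, 95% interval -1.71 to -1.32), in 45 of 47 and 85 of 98 members. After thinning 88.9% and 58.8% of members held it, beside 4.17% and 1.51% of B cells, and its ratio was -1.35 without the cells carrying other genes. *Mnda*, an interferon-inducible nuclear antigen of myeloid cells, was at 251 and 111 CPM (log2 ratio -1.18, 95% interval -1.58 to -0.79), and *Lgals3bp* at 97.4 and 31.6 CPM (log2 ratio -1.62, 95% interval -2.35 to -0.92). *I830077J02Rik*, *Ppm1h* and *Gm5150* had log2 ratios between -1.24 and -1.15, and *Ifi27l2a* was the last of them. Without the cells carrying other genes *Mnda* was at -0.97, *Ppm1h* at -0.97 and *Gm5150* at -0.90.

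Averaged over both libraries, the cells varied most in genes that mostly few cells held. After thinning to 2000 UMIs, 45 room air and 97 hyperoxia members remained, and the ratio of variance to mean was ranked over 2249 genes, with a median of 1.06. *S100a9* led with a mean ratio of 202, then *S100a8* with 121, *Ngp* with 81.4, *Camp* with 41.8 and *Retnlg* with 32.0. The libraries were not alike, since *Retnlg* had a ratio of 6 in room air and 58.0 in hyperoxia. In room air *Ngp*, *Camp* and *Retnlg* were found in the same 1 of 45 cells. In hyperoxia they were found in 2, 4 and 2 of 97 cells. *S100a9* was found in 3 of 45 and 6 of 97 thinned cells, but *S100a8* was found in 8 and 31. Without the single cell that held most of its UMIs in each library, *S100a8* was at a log2 ratio of 0.88 in place of -1.13.

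The class II genes of the hyperoxia library sat in 7 cells that stood apart. Over all members 4 of 7 class II genes were at least 2-fold higher (beside 3.35% of all genes) and the median was 2.48. *H2-Aa* was at 12.4 and 298 CPM and *Cd74*, the invariant chain, at 182 and 1019 CPM. The 7 cells held 98.4% of the UMIs of *H2-Aa*, *H2-Ab1* and *H2-Eb1*. They had a median of 13928 UMIs and were at 10167 CPM of *Cd74*, against 171 CPM in the 81 hyperoxia members without genes of other cell types. All 7 lacked *Ly6c2*, and 1 of 7 had *F13a1*, so they met the rule through *Ccr2*, at 555 CPM. They were at 10554 CPM of *Lyz2* beside 19203 CPM in the others, 129 beside 4443 CPM of *Plac8*, and 3837 beside 1101 CPM of *Il1b*. The dendritic cell genes *Zbtb46*, *Flt3*, *Cd209a* and *Ccr7* were at 0 in all 7, as was *Cd79a* of B cells. *Flt3*, *Cd209a* and *Cd79a* were limited by the rule. *Zbtb46*, *Cd209a* and *Cd79a* were also at 0 in the 81 other cells. Higher in the 7 cells were *Itgax* (142 beside 13.5 CPM), *Mrc1* (181 beside 4.51 CPM) and *Mmp12* (866 beside 30.1 CPM). Each was found in only 2 or 3 of the 7, and *Apoe* was at 2377 beside 2562 CPM. The identity of the 7 cells was not tested. In room air no member held more than 2 class II UMIs of these 3 genes. Of the 15 hyperoxia members without *Ly6c2*, 8 carried genes of other cell types.

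Set beside the other myeloid cells of the same 2 libraries, the lower MHC class I and interferon levels were not a property of the classical monocytes alone. The summed class I level was lower in hyperoxia in each of 7 cell groups, for example 11020 and 7408 CPM in nonclassical monocytes, 7258 and 5064 CPM in C1q macrophages and 7209 and 4243 CPM in endothelial cells, beside 7017 and 4430.5 CPM in classical monocytes. The summed interferon-stimulated level was lower in each of the 7 as well, at 5651 and 3430 CPM in classical and 5286 and 4190 CPM in nonclassical monocytes. Of the classical room air sum, 1 cell held 375 of 2726 UMIs. Cytokine and NF-kB genes summed higher in each of the 7, at 3620 and 6667 CPM in classical and 4346 and 5546 CPM in nonclassical monocytes. All groups came from the same 2 libraries, so they are not independent repeats.

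Single genes differed more between the groups. *Vcan* was higher in nonclassical monocytes too, at 47.9 and 204 CPM. *Ccl2* was at 7.14 and 54.6 CPM in nonclassical monocytes and at 254 and 252 CPM in C1q macrophages. *Il1b* was at 1429 and 1257 CPM in nonclassical monocytes, where its level in room air already exceeded that of the hyperoxia classical monocytes. *Nfkbia* was at 737 and 646 CPM there, and *Cd14* at 626 and 887 CPM. *H2-K1* was at 1993 and 1029 CPM in nonclassical monocytes, a log2 ratio of -0.95, and -0.75 in C1q macrophages. *Itgb7* and *Selplg* had log2 ratios of -0.35 and -0.01 in nonclassical monocytes. Differences between the groups were not tested.

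**Figure D5:**
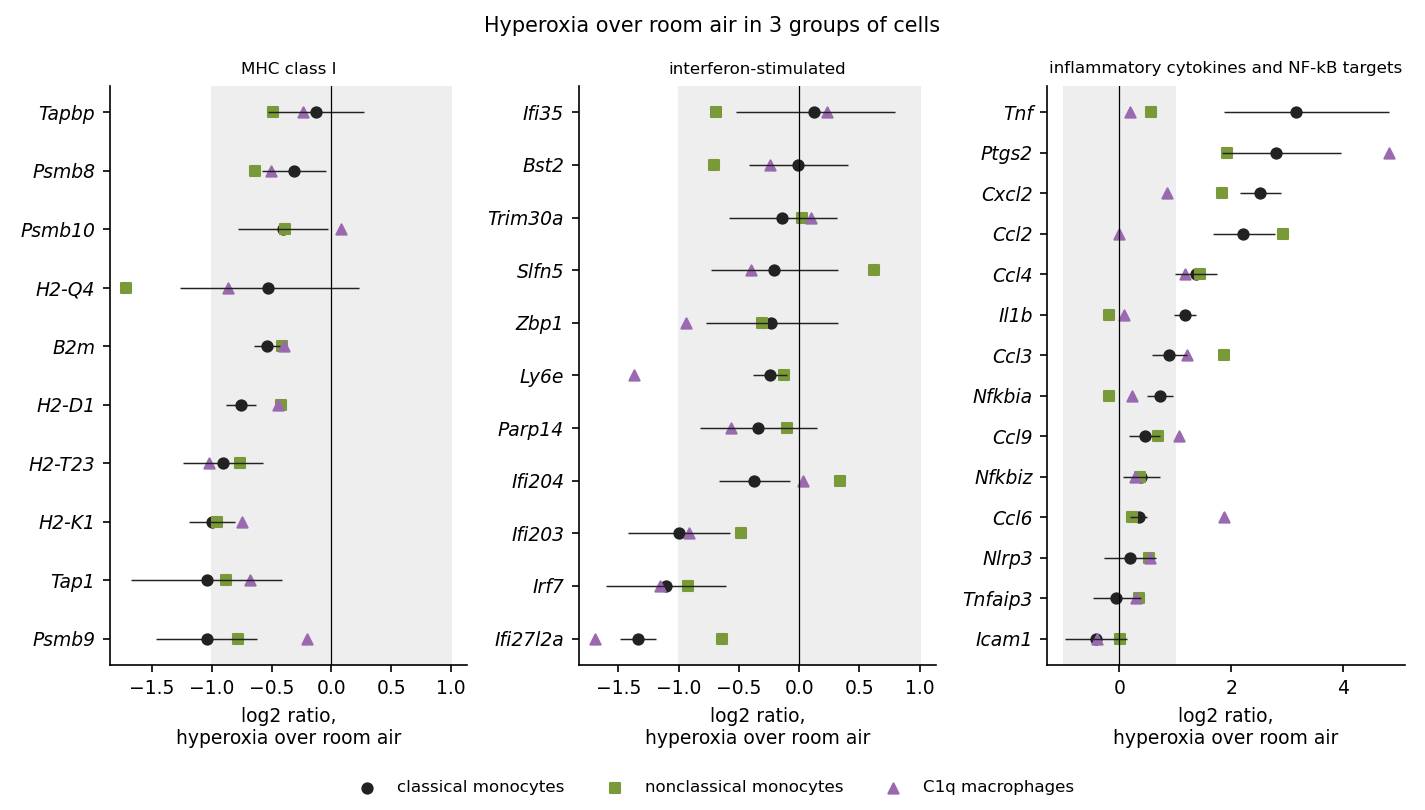
Log2 ratio of hyperoxia over room air (horizontal axes) for compared and reported genes of 3 lists in classical monocytes (black points with exact 95% intervals), nonclassical monocytes (green squares) and C1q macrophages (purple triangles). The shaded band marks differences under 2-fold. All 10 class I genes are below 0 in classical and nonclassical monocytes, and *Il1b* is above 2-fold only in classical monocytes of these 3 groups.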

How the data were processed

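Lung cells of 1 room air and 1 hyperoxia library (8 pooled mice each) were profiled on the 10x Genomics platform. The authors aligned reads to mm10 with Cell Ranger and deposited the filtered count matrix of each library, raw UMI counts per gene and barcode. The version differs between sources, with 6.1.1 in the methods and the extract protocol of the labels, 2.1.1 in the submitters' processing notes and 3.1.0 as the software of the file headers, and the chemistry version of the kit differs between labels and methods. Free RNA was not corrected here, so low counts in a cell can come from other cells.

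Barcodes under 500 genes or over 20% mitochondrial UMIs were dropped, and members were chosen by the rule on raw counts. The members and gene lists were chosen with earlier results of these data known. UMIs were summed per library and divided by the total (CPM). Genes with a mean of at least 50 CPM were compared, and shares, levels and ratios have exact 95% intervals (Clopper-Pearson, Poisson, conditional binomial; scipy 1.17.1), for counting error only. Intervals of share differences combine these 2 intervals. With 1 library per group no test was possible. Named genes were list members and the 15 largest and 15 smallest log2 ratios among genes at least 3 times their B cell CPM in the library where they were higher, without mitochondrial, ribosomal protein, haemoglobin and sex-linked genes. *Xist* and *Ddx3y*, *Ly6c2* and the genes that mark cells of other types were named outside this rule, after their values were seen. Some list genes are counted but not reported here by name. Doublets were not removed from the main set. In an alternative, cells were ranked by the simulated doublets among their neighbours (scikit-learn 1.9.0) and the top 0.8% per 1000 barcodes left out. Other alternatives changed the limits on cells and genes, thinned each cell to 2000 UMIs or averaged over cells. The calculation of ratios was tested on simulated counts. Positions are from GENCODE M21, the same assembly as mm10.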

Additional observations from a re-analysis of the deposited data

Results flagged for a closer look

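With 1 library per condition no sample could stand apart from its group. For 5 genes classical and nonclassical monocytes both differed at least 2-fold between the libraries, in opposite directions, and the difference between the groups was not tested. Log2 ratios of hyperoxia over room air in classical and nonclassical monocytes were -1.24 and 1.26 for *S100a9*, -1.52 and 5.65 for *Ngp*, -1.37 and 6.14 for *Camp* and -1.198 and 6.74 for *Ltf*, all genes of neutrophils or their precursors. Of the classical members' UMIs of *S100a9*, 1 room air cell held 99.4%. The stromal gene *Mfap4* was at 3.29 in classical and -1.85 in nonclassical monocytes. In hyperoxia 1 classical member held 45.2% of its UMIs, and B cells held 873 and 571 CPM.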

How the results depend on the processing

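No paired analysis was possible because each condition had 1 library. The lower hyperoxia share of classical monocytes among all cells held under all 6 alternatives listed at the start, at -0.364 to -0.743 percentage points. It also held under the 2 added after seeing the data. Their shares of smaller groups were not recomputed. The count of genes at least 2-fold higher, 96, went to 348 of 5350 with a mean of at least 20 CPM, 40 of 1495 at 100 CPM, 1354 of 10150 with no filter, 25 of 524 among genes at least 3 times their B cell level and 304 of 2981 after thinning to 2000 UMIs. The count lower, 45, went to 132, 23, 686, 23 and 246 under the same settings in that order, to 27 without each gene's top cell and to 24 without the cells carrying genes of other cell types. These last 2 and the limit to cells with *Ly6c2* were chosen after seeing the data.

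Over all 12 alternatives run for lists, the median log2 ratio stayed between -0.88 and -0.53 for MHC class I, between -1.16 and -0.17 for interferon-stimulated genes and between 0.48 and 0.995 for cytokines and NF-kB targets. Reversals came mostly from genes of other cell types. The MHC class II median (log2) was -0.29 in cells with *Ly6c2* and -0.15 without the cells carrying other genes. In the same order *Cd74* was at -0.41 and -0.14, *H2-Aa* at -0.62 and -0.31, *H2-Ab1* at -1.21 and -1.11, and *H2-Eb1* at -1.62 and -1.53. Also in cells with *Ly6c2*, *AA467197* was at -1.85, *Ccl24* at -0.62 and *Mmp12* at -0.62. Without the cells carrying other genes the granule median was 1.33, *Ngp* was at 1.06, *S100a9* at 0.14, *Stfa1* at -1.85, *Stfa3* at 0.31 and *Wfdc21* at 1.06. Without each gene's top cell the neutrophil median was 0.88, with *S100a8* at 0.88, *S100a9* at 4.92, *Ngp* at 3.98, *BC100530* at 2.88, *Ltf* at 1.66, *Wfdc21* at 0.98 and *Stfa3* at 0.11. As a mean over cells the neutrophil median was 0.18, *S100a8* 0.18 and *S100a9* 0.21. After thinning the neutrophil median was 0.35, *S100a8* 1.81, *Bcl2a1b* -0.49, *Bcl2a1d* -0.11 and *Dnajb1* -0.52. With a marker sum of at least 5, *Gm5483* was at -3.75, *Retnlg* at -5.84 and *Stfa1* at -2.07. Without doublets *Cd63* was at -1.17 and *Col3a1* at -0.028. Of 1788 values of single genes under the alternatives listed at the start, 1589 stayed within the counting interval, 188 moved further and 11 reversed. Of 588 under those added after seeing the data, 501 stayed within it, 64 moved further and 23 reversed. After thinning the medians of smaller lists also changed sign, to -0.30 for coagulation and fibrinolysis, -0.04 for pattern recognition, 0.28 for trafficking receptors, 0.25 for classical monocyte genes, -0.45 for nonclassical monocyte genes, -0.03 for lineage factors and -0.89 for the cell cycle. The number of members, 47 and 98, limits every level, and the spread between mice is unknown.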
